A study of Mus musculus with 6 samples.

Results

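Eph receptors are the largest family of receptor tyrosine kinases, and their ligands, the ephrins, are themselves bound to the membrane, so that signalling runs between touching cells and in both directions. A-type ephrins hang on a lipid anchor and mostly bind EphA receptors, while B-type ephrins span the membrane and mostly bind EphB receptors. In the gut, Wnt signalling keeps EphB receptors high at the crypt base and ephrin-B ligands are high towards the differentiated cells, and the repulsion between them keeps cells in their zone. In colorectal tumours EphB receptors are known to be high in early adenomas and often lost later.

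Expression of this family was read on 6 Affymetrix arrays of total RNA from mouse colon tumours, all on the CBA/C57BL/6 strain. The control group was 3 wild-type mice and the other group 3 mice carrying a human IL8 transgene, one sample to an array. IL8 is a chemokine that draws neutrophils. The sources used here do not give the promoter of the transgene, the age of the mice or the way the tumours were raised. Whether RNA of several tumours was joined on an array is not given either, so the p-values cover the spread between these 6 samples, part of which may be technical. Members were all probe sets (groups of short probes that read a transcript) annotated to exactly 1 of 10 listed genes. They came to 17 of 45101 probe sets and stood for 9 of the 10 genes, of 18194 genes named on the array. Ephb2 was not analysed here.

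Probe sets were kept for testing where their log2 expression value reached 4 on at least 3 of the 6 arrays. This held for 12 of the 17 member probe sets, at least 1 for each of the 9 genes, against 19310 of all 45101. Of the 12, 11 reached 4 on all 6 arrays and Efna4 on 5. The other 5 were 1451591_a_at of Efnb1, 1449548_at and 1449549_at of Efnb2, and 1432399_a_at and 1432400_at of Epha1. They had no value above 4.13 on any array and are not described further. Where several probe sets of a gene were kept, the brighter one stands for the gene.

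The arrays differ in ways that touch what follows. All 6 animals are labelled male, yet Xist, the RNA of the inactive X chromosome, ranged from 12.27 to 12.89 in the transgenic group and from 2.33 to 2.64 in controls. The Y-linked Eif2s3y ranged from 2.39 to 2.71 and from 9.99 to 10.22. Genotype and this sex signal therefore cannot be told apart in any comparison here. Epcam and Cdh1, which mark epithelium, were at 13.82 or more and 11.97 or more on all 6 arrays. Transgenic array 2 stood apart: of 19 genes of stratified squamous epithelium, 18 were highest on it, among them Krtdap at 12.31, Krt5 at 10.27 and Trp63 at 8.97, where the other arrays had at most 2.62, 2.86 and 2.29. The summed linear signal of this list was 461 to 694 on control arrays, 642 and 930 on transgenic arrays 3 and 1, and 34117 on transgenic array 2. For Gapdh, signal near the 3′ end exceeded that near the 5′ end by 0.71 log2 units on transgenic array 1 and by 0.87 to 0.96 on the others, a measure of how RNA and its labelling went.

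Promoter stretches are shown for Ephb3, which is described below as a Wnt target, and for Epha2. Epha2 is the one member with a match to the searched Wnt motif. RefSeq windows of 300 bases (250 before and 50 after a transcript's start, build GRCm38.p6) were available for all 10 genes, 11 windows in all. They were searched on both strands for CTTTGAA and CTTTGAT, the core bound by TCF/LEF factors and which differ in their last base, so that no site matches both. The first occurs in 5.14% and the second in 3.73% of all 32851 windows, and either in 8.65%. Among the members 1 of 11 windows had a match, CTTTGAA in the window of Epha2, starting 209 bases before the transcript start. That match is in capitals below. The Ephb3 stretch stops before the first annotated start of the gene and has no capitals, which says only that these letters are not in it. The GC content of the 11 windows ran from 54.7% to 76.3%, against a median of 52.7% over all windows.
Epha2 chr4:141300971-141301220, plus strand: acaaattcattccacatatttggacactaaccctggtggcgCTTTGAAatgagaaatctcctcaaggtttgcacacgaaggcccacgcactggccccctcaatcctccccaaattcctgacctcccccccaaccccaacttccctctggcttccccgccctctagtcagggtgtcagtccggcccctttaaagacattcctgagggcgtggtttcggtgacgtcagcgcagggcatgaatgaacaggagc
Ephb3 chr16:21204545-21204619, plus strand: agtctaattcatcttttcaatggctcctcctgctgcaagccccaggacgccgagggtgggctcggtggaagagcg

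The comparison asked how expression of the family differed between tumours with and without the IL8 transgene. No member passed. Of the 12 kept probe sets, 0 had an adjusted p under 0.05 (limma, Benjamini-Hochberg adjustment over all 19310), where 0.057% of all tested probe sets did, and the members' adjusted p ran from 0.806 to 0.976. Xist and Eif2s3y, the genes of the sex signal above, were among the probe sets that passed. At an unadjusted p under 0.05 the count of members was 1, Ephb6, against a background of 5.5%. The groups did not overlap for 1 of the 12, again Ephb6, or 8.33%, against 10.9% of all probe sets. Differences were split evenly, 6 higher and 6 lower in transgenic tumours, with a median of 0.14 against -0.02 over all probe sets. By gene, taking the brightest kept probe set, 4 were higher and 5 lower, with a median of -0.04 against -0.02 over 10289 genes. The 95% intervals, not adjusted for the 19310 probe sets tested, reached from 0.43 to 1.23 log2 units to either side of the difference. Smaller changes were not detectable with 3 arrays a group, and larger ones could also fail to pass, as Ephb6 did at -1.34.

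**Figure D1:**
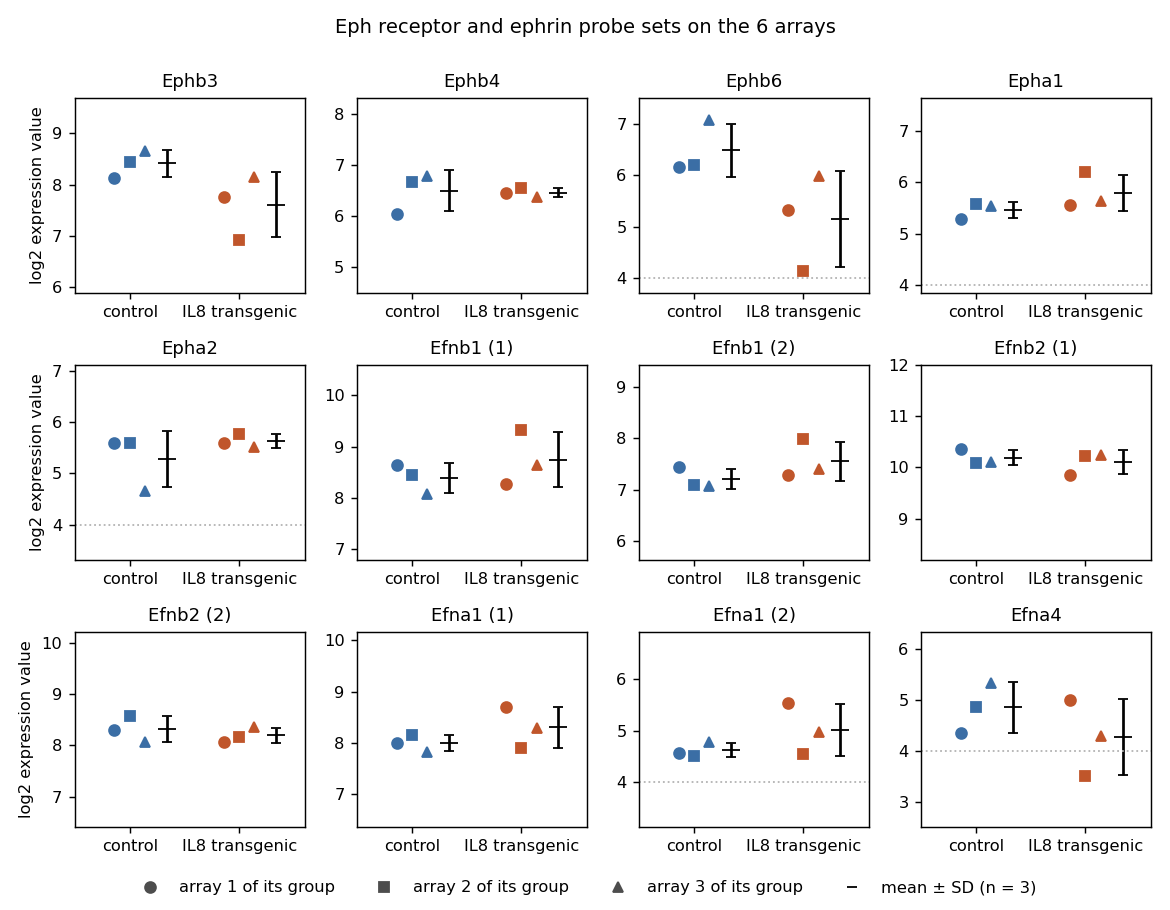
Log2 expression value (vertical axis, each panel spanning the same range of 3.8 units) of the 12 kept probe sets on the 3 control and 3 IL8 transgenic arrays, with the mean ± SD of each group in black and the filter level of 4 dotted; (1) and (2) are the brighter and the dimmer probe set of a gene. The groups are apart only for Ephb6, and transgenic array 2 (square) is the lowest point for Ephb3, Ephb6 and Efna4 and the highest for Efnb1, Epha1 and Epha2. That is 3 probe sets lowest and 4 highest of the 12, where 29.1% and 22.7% of all kept probe sets were lowest and highest on that array.

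EphB receptors come first. Ephb6 encodes a receptor whose kinase domain is inactive and which is known from T cells as well as epithelium. Its probe set 1418051_at was at 6.17, 6.21 and 7.09 on control arrays 1, 2 and 3 and at 5.34, 4.14 and 5.98 on transgenic arrays 1, 2 and 3. Every transgenic array lay below every control array, by a gap of 0.19 between the nearest pair, and transgenic array 2 was the lowest by far. The means were 6.49 ± 0.52 and 5.15 ± 0.94 (SD, n = 3 each), a difference of -1.34 ± 0.51 (SE) with a 95% interval from -2.57 to -0.11, or 2.53-fold lower. It did not pass (limma adjusted p 0.806). The difference was -0.83 without transgenic array 2. It was -0.79 with arrays weighted by quality, in which transgenic arrays 1 and 2 count least.

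Ephb3, a crypt-base receptor and Wnt target that helps to place Paneth cells, was at 8.13, 8.45 and 8.66 on the control arrays and at 7.75, 6.92 and 8.16 on the transgenic arrays (probe set 1451550_at). Transgenic arrays 1 and 2 lay below all controls, while transgenic array 3 was 0.03 above control array 1, so that the groups just overlapped. The difference was -0.80 ± 0.34 (SE), with an interval from -1.63 to 0.02, and did not pass (limma adjusted p 0.806). Leaving out transgenic array 2 made it -0.46, and leaving out transgenic array 3 made it -1.08. With array quality weights it was -0.51.

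Ephb4, the receptor for ephrin-B2 that marks veins and is also made by colon epithelium, was at 6.04, 6.67 and 6.78 in control and 6.45, 6.55 and 6.38 in transgenic tumours (probe set 1449845_a_at). All 3 transgenic values fell inside the range of the controls. The difference was -0.04 ± 0.23 (SE), with an interval from -0.59 to 0.51, and its sign depended on which array was left out. The endothelial list beside it had 11 of 16 annotated genes kept, 10 of them lower and 0 passing. Its summed signal was 1984 to 2777 in control and 830 to 2356 in transgenic tumours. Much of that sum was Sox17, at 5.49 on transgenic array 2 and at 10.07 or more elsewhere, and without it, a step added after seeing the data, the sums were 844 to 952 and 693 to 785. In this list 4 genes, Cldn5, Erg, Robo4 and Tie1, stayed under 4 on every array. The part of endothelium in the Ephb4 values was not tested.

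Of the EphA receptors, Epha1, a receptor made mainly by epithelia, was at 5.29, 5.59 and 5.53 in control and 5.57, 6.21 and 5.63 in transgenic tumours (probe set 1422917_at). Transgenic arrays 2 and 3 lay above all controls and array 1 did not. The difference was 0.33 ± 0.22 (SE), and 0.13 without transgenic array 2. Epha2, a receptor that is often raised in carcinomas and in stratified epithelium, was at 5.60, 5.60 and 4.66 in control and 5.58, 5.78 and 5.52 in transgenic tumours (probe set 1421151_a_at). Here 1 control array was low and the other 5 arrays lay close together. The difference of 0.34 ± 0.29 fell to 0.03 without control array 3 and to 0.14 with array quality weights. Neither receptor passed (limma adjusted p 0.806 and 0.819).

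The B-type ephrins followed different arrays. Efnb1, an X-linked gene, encodes a ligand of EphB receptors. Its brighter probe set 1418285_at was at 8.65, 8.45 and 8.07 in control and 8.27, 9.32 and 8.65 in transgenic tumours. The dimmer one, 1418286_a_at, was at 7.44, 7.10 and 7.08 and at 7.27, 7.99 and 7.40. Both were highest on transgenic array 2, and the groups overlapped for both.

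The Efnb1 differences were 0.35 ± 0.31 and 0.35 ± 0.24 (SE), with limma adjusted p 0.825 and 0.806. They were 0.07 and 0.13 without transgenic array 2, and 0.59 and 0.49 without transgenic array 1. Among 470 kept probe sets of X-linked genes other than Xist the median difference was 0.01. For both Efnb1 probe sets the 3 highest arrays were transgenic 2, transgenic 3 and control 1. These were also the arrays on which the list of differentiated colonocyte genes was highest on average. Over 17 kept genes its mean deviation from the control mean was 0.98, 1.62 and 1.25. It was -0.58, -0.33 and -0.92 on transgenic array 1 and control arrays 2 and 3. Not every gene of the list followed its mean. Slc9a3 and Car1 deviated by -7.73 and -0.90 on transgenic array 2, where the other kept genes lay above the control mean. Slc9a3 fell to 4.10 on this array, and no other array had less than 11.36. That list had 15 of 17 genes higher and 0 passing, a summed signal of 18836 to 42026 in control and 23916 to 45394 in transgenic tumours, and Alpi under 4 on every array. This alignment was noticed after the values were seen, and the part of colonocytes in it was not tested.

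Efnb2, the partner of Ephb4 and a mark of arteries, varied least over the 6 arrays among the ligands. Its brighter probe set 1419639_at was at 10.36, 10.09 and 10.11 in control and 9.84, 10.22 and 10.25 in transgenic tumours. The dimmer 1419638_at was at 8.301, 8.57 and 8.07 and at 8.06, 8.17 and 8.36. Transgenic array 1 was the lowest for both, and the groups overlapped. The differences were -0.08 ± 0.18 and -0.12 ± 0.19 (SE), with intervals from -0.52 to 0.35 and from -0.56 to 0.33, and both signs turned in some of the alternatives.

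The A-type ephrins Efna1 and Efna4 lie next to each other on chromosome 3 with only Efna3 between them among protein-coding genes, and they went different ways. Efna1, a ligand of Epha2 and known as a gene induced by inflammatory cytokines, was at 8.001, 8.15 and 7.83 in control and 8.71, 7.91 and 8.29 in transgenic tumours by probe set 1416895_at. By probe set 1448510_at it was at 4.56, 4.51 and 4.77 and at 5.54, 4.53 and 4.96. For both, transgenic arrays 1 and 3 lay above all controls and transgenic array 2 lay within their range. The differences were 0.31 ± 0.24 and 0.40 ± 0.27 (SE), and neither passed (limma adjusted p 0.810 and 0.806). They were 0.11 and 0.13 without transgenic array 1, the array with the low Gapdh 3′ excess, and 0.51 and 0.64 without transgenic array 2. The part of RNA quality in this was not tested.

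Efna4, a ligand of EphA receptors, was at 4.36, 4.87 and 5.34 in control and 4.997, 3.52 and 4.30 in transgenic tumours (probe set 1421784_a_at). Its values lay close to the filter level, and transgenic arrays 2 and 3 were below all controls. The difference was -0.58 ± 0.43 (SE), with an interval from -1.62 to 0.45, and did not pass (limma adjusted p 0.809). Leaving out transgenic array 2 or 1 made it -0.21 or -0.95, leaving out control array 1 or 3 made it -0.83 or -0.34, and setting values under 4 to 4 made it -0.42. Efna4 was lowest on the same 3 arrays on which Efnb1 was highest, an order seen after the fact and not tested. Efna3, which lies between these genes, was kept by neither of its probe sets and reached 4.09 at most, on transgenic array 2.

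**Figure D2:**
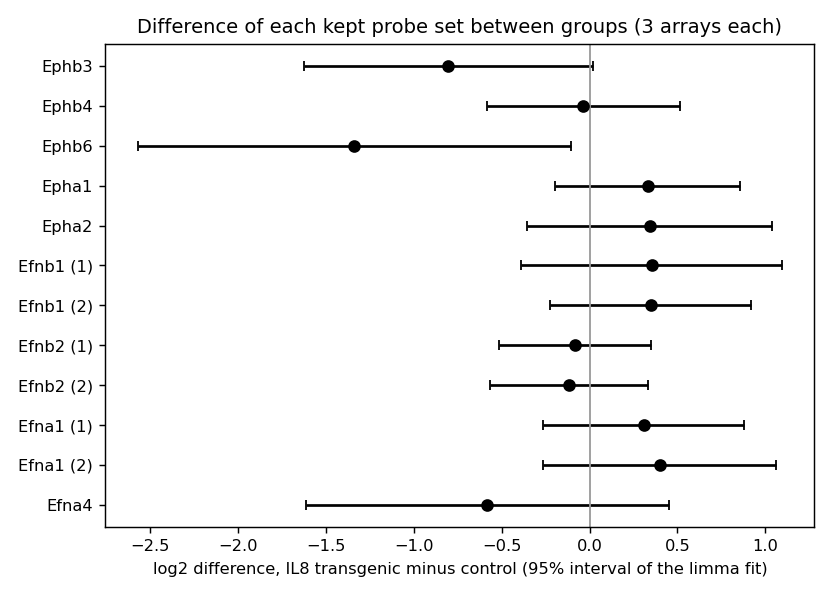
Log2 difference, IL8 transgenic minus control (horizontal axis), of the 12 kept probe sets, with the 95% interval of the limma fit (3 arrays a group). Only the interval of Ephb6 lies below 0 as a whole, from -2.57 to -0.11, and it is not adjusted for the 19310 probe sets tested.

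The 3 widest departures of members from the controls were all on transgenic array 2. On it Ephb6 lay 2.36, Ephb3 1.49 and Efna4 1.33 log2 units below the control mean. The same array held Efnb1 0.93 and 0.79, Epha1 0.74 and Epha2 0.49 above the control mean, and Ephb4, Efna1 and Efnb2 at most 0.14 from it. Deviations as low as that of Ephb6 were found for 1.86% of all kept probe sets on that array, and as low as those of Ephb3 and Efna4 for 4.63% and 5.69%. Deviations as high as the brighter Efnb1 probe set were found for 5.96%. These receptors and ligands were high on the array with the high squamous list, and the part of squamous epithelium in their values was not tested; without that array their differences were 0.07 and 0.13 for Efnb1, 0.13 for Epha1 and 0.27 for Epha2. In all, 7 of the 12 member probe sets lay outside the range of the 3 controls on transgenic array 2, where 69.6% of all probe sets did. The counts on transgenic arrays 1 and 3 were 6 and 6 of 12, against 67.2% and 40.8%.

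Lists of cell type genes moved with these members on the same array. Of 22 kept genes of the Wnt and stem cell list (25 listed), 20 were lower in transgenic tumours, 2 higher and 0 passed. Averaged over the list, transgenic array 2 lay 2.72 log2 units under the control mean (-2.72), and transgenic arrays 1 and 3 deviated by -0.27 and -0.24. Its summed signal was 25196 to 31831 in control tumours, 25352 and 25522 on transgenic arrays 1 and 3, and 9672 on transgenic array 2, and Olfm4 stayed under 4 on every array. Axin2, a feedback target of Wnt signalling, fell between 10.80 and 11.42 on 5 arrays, with 7.94 on transgenic array 2. Lgr5, a stem cell receptor, was at 8.80 there and at 9.54 or more elsewhere, and Ascl2, a stem cell transcription factor, at 6.63 there and at 7.81 or more elsewhere. Fewer cells of a type and less RNA per cell cannot be told apart in such bulk samples, and the part of the Wnt and stem cell genes in the Ephb3 and Ephb6 values was not tested.

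Leukocyte genes, listed because Ephb6 is also made by T cells, were lower too. Of 16 listed genes 13 were annotated, and the 4 that were kept were all lower and 0 passed. The list's mean deviation was -0.91, -1.75 and -0.40 on transgenic arrays 1, 2 and 3, the same order of arrays as for Ephb6 (-1.16, -2.36 and -0.51) and Ephb3 (-0.66, -1.49 and -0.26). This order was not particular to leukocytes. The Wnt and stem cell list had it (-0.27, -2.72 and -0.24), as did the endothelial list with Sox17 in it (-0.40, -0.67 and -0.30). The summed signal of the leukocyte list was 2559 to 3432 in control and 996 to 2152 in transgenic tumours. Ptprc, the leukocyte antigen CD45, was at 9.56 or more in control and 8.56, 8.58 and 9.55 in transgenic tumours. Of the 6 annotated T cell genes, Cd3e, Cd3g, Cd2 and Cd4 were under 4 on every array, with Cd3e at 2.20 or less, and Cd3d and Cd8a reached 4.03 and 4.12 at most. The part of T cells or other leukocytes in the Ephb6 values was not tested.

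The proliferation and fibroblast lists were lower too, with a different order of arrays. All 14 proliferation genes were lower (median -0.32) and 13 of 14 fibroblast genes (median -0.56), with 0 passing in either list. Both were lowest on transgenic array 1, at a mean deviation of -0.98 and -1.19, where Ephb6 and Ephb3 were at -1.16 and -0.66. On transgenic array 2, where Ephb6 and Ephb3 were lowest, the proliferation and fibroblast lists were at -0.03 and -0.18. The summed signal of proliferation genes was 16807 to 20157 in control and 11153 to 18255 in transgenic tumours, and that of fibroblast genes 35606 to 36632 and 21021 to 28135. Their part in the members' values was not tested.

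**Figure D3:**
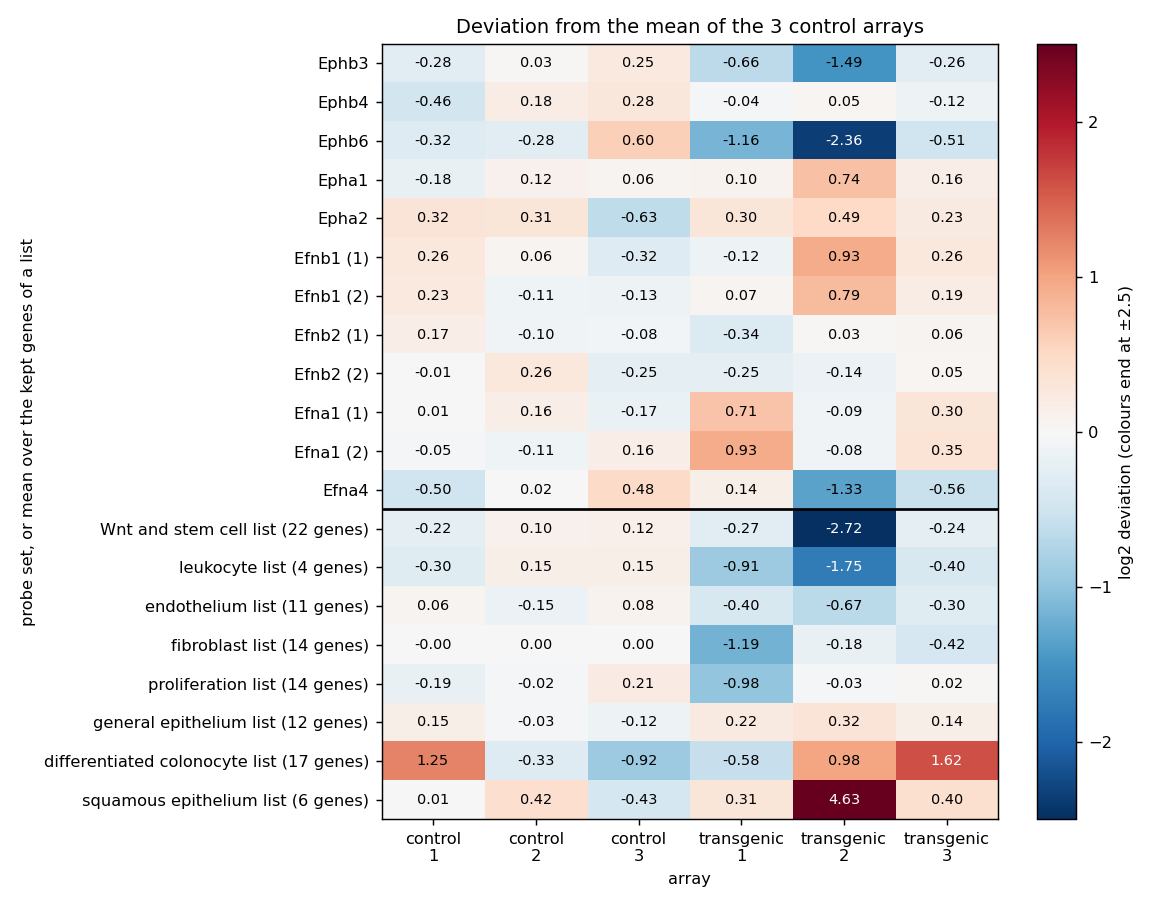
Log2 deviation of each array from the mean of the 3 control arrays, for the 12 kept member probe sets (above the line) and, as a mean over kept genes, for 8 lists of cell type genes (below it). Transgenic array 2 holds the lowest values of Ephb6 (-2.36) and of the Wnt and stem cell list (-2.72) and the highest of Efnb1 (0.93) and of the squamous list (4.63).

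Transgenic array 3 lay near control array 1 for some members and not for others. Transgenic 3 minus control 1 was 0.03 for Ephb3, 0.0015 and -0.04 for Efnb1, and -0.06 for Efna4. It was 0.29 and 0.40 for Efna1, 0.34 for Epha1 and 0.34 for Ephb4, against group differences of 0.31 and 0.40, 0.33 and -0.04. Over all kept probe sets this pair correlated at 0.987, which describes arrays and not genes as replicates. The control arrays correlated with each other at 0.975 to 0.983, and transgenic array 3 with transgenic arrays 1 and 2 at 0.954 each.

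**Figure D4:**
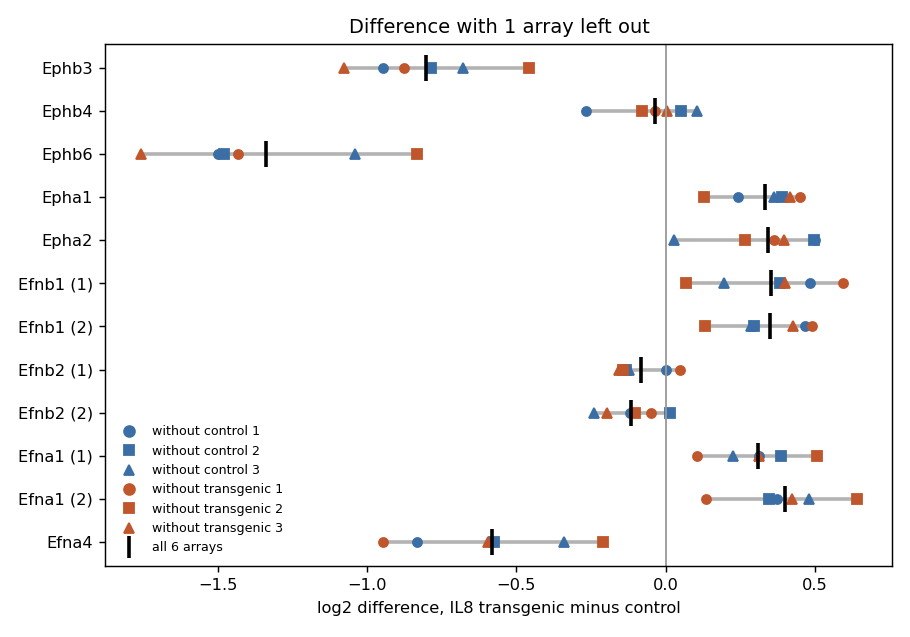
Log2 difference, IL8 transgenic minus control (horizontal axis), of each kept probe set with all 6 arrays (black bar) and with 1 array left out (points, joined by a grey line). Ephb6 ran from -1.76 to -0.83 and Ephb3 from -1.08 to -0.46, while both Efnb2 probe sets and Ephb4 crossed 0.

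Genes whose pattern over the 6 arrays was most like that of Ephb3 were sought among 16867 other kept probe sets with 1 symbol. The highest Pearson r belonged to Clec4n, a lectin of myeloid cells (r = 0.998), the cell cycle kinase gene Cdk4 (0.998), the deacetylase gene Hdac6 (0.997), C1qc, a chain of complement C1q (0.997), and Gpr65 (0.996). With only 6 arrays, 953 of these probe sets had an r above 0.9. All 5 genes were lowest on transgenic array 2, where Clec4n was at 4.14 against 6.11 or more elsewhere, as Ephb3 was.

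The rest of the family was mostly near background. Of 12 other Eph and ephrin genes with 28 probe sets, 11 had none that was kept, and 9 stayed under 4 on every array by their brightest probe set. These were Ephb1, Epha3, Epha5, Epha6, Epha7, Epha8, Epha10, Efna2 and Efnb3, with the highest value, 3.95, for Efna2. Efna3 and Efna5 passed 4 on transgenic array 2 alone, at 4.09 and 4.11. Epha4, a receptor that binds both classes of ephrins, was the exception, with 3 of 5 probe sets kept. The brightest, 1421929_at, was at 6.36, 7.44 and 5.94 in control and 6.95, 6.18 and 6.51 in transgenic tumours, a difference of -0.03 ± 0.42 (SE). The dimmest kept one, 1429021_at, was at 4.69, 4.47 and 4.14 and at 4.81, 4.97 and 4.84. Its groups did not overlap, with a difference of 0.44 ± 0.18, but it did not pass (limma adjusted p 0.806) and the probe sets of Epha4 did not share a direction.

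Genes that carry the signal inside the cell stayed, as lists, close to the median difference of all probe sets, -0.02. Of 36 adaptors and enzymes of forward signalling, which starts at the receptor, 33 were kept, 13 higher and 20 lower, with a median difference of -0.07 and 0 passing in either direction. Those of smallest unadjusted p were Ngef, which encodes ephexin, an exchange factor that binds Eph receptors (0.47 ± 0.24), the adaptor gene Grb2 (-0.32 ± 0.19) and the lipid phosphatase gene Inppl1 (0.35 ± 0.21). Grb2 was at 8.85, 8.90 and 8.81 in control and 8.21, 8.63 and 8.77 in transgenic tumours, without overlap, and not one of these passed (limma adjusted p 0.806).

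Of 15 genes of reverse signalling, which starts at the ephrin, and of shedding, 11 were kept, 5 higher and 6 lower, with a median of -0.05 and 0 passing in either direction. Rhbdl2, a rhomboid protease that can cut ephrin-B ligands, was at 8.36, 7.50 and 6.84 in control and 7.73, 9.72 and 8.21 in transgenic tumours, a difference of 0.99 ± 0.61, and was highest on transgenic array 2. The gelatinase gene Mmp9 was at 8.06, 8.39 and 8.31 in control and 6.96, 4.08 and 7.87 in transgenic tumours, with no overlap. Adam17, a sheddase, differed by -0.24 ± 0.15. None of these 3 passed (limma adjusted p 0.806).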

How the data were processed

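Per the submitters' processing notes, the authors used GCRMA, which corrects background and condenses the probes of a set into 1 value. That the deposited values are log2 was read from their range (array medians 3.31 to 3.36). No version or build is given in the sources used here. The values were used as deposited. Values near 4 lie close to background, so differences there are uncertain. Without the array's control probe sets, 19310 were kept and fitted by group with limma (version 3.58.1, under R 4.3.3; lmFit, then eBayes). Differences are transgenic minus control, and p-values were adjusted over all of them by the Benjamini-Hochberg method. The precision is limited by 3 arrays per group. Symbols came from the platform table, and the entrez identifiers of all 17 member probe sets were found in RefSeq's GRCm38.p6 table, used for names and neighbours.

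All member probe sets are named; further names are the 3 genes of smallest unadjusted p from each signalling list, all other family genes, a set of marker genes and the 5 genes most like Ephb3. Members and lists were chosen with earlier results of these data known. Sox17, Slc9a3, Car1, the endothelial genes under 4, the T cell genes, Olfm4 and the members of each pair of arrays set side by side were singled out after their values were seen. The fit was tested on simulated data. Alternatives were other filters, normalizations, variance priors, array weights, a replicate block, values under 4 set to 4, a looser threshold, the mean over a gene's probe sets, and each array left out.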

Additional observations from a re-analysis of the deposited data

How the results depend on the processing

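In 15 alternatives the number of member probe sets and of listed genes that passed stayed at 0, and all tested probe sets gave 8 to 12 calls against 11 in the main fit. The smallest adjusted p of any member over the alternatives was 0.339. Of 164 alternative differences of kept members, 157 kept their sign and 7 turned, and for 9 of the 12 probe sets none turned. Array quality weights moved Ephb6 to -0.79, Ephb3 to -0.51 and Epha2 to 0.14. The brighter Efnb2 probe set went to 0.012 with array quality weights and ran from -0.16 to 0.047 with 1 array left out, with the sign turned without control array 1 or transgenic array 1. The dimmer one ran from -0.24 to 0.013, turned without control array 2. Ephb4 ran from -0.27 to 0.10, turned without control array 2 or 3 or transgenic array 3. The cause was not tested. The count of members without overlap was 1 of 12, against 10.9% of all probe sets. It was 3 with quantile normalization (Ephb6, Ephb3 and Epha1; 11.0% of all) and 2 with median centring (Ephb6 and Epha1; 11.0%). With 1 array left out it was 1 to 4, where smaller groups separate more easily and the share of all probe sets was 14.7% to 30.2%. Ephb6 was among them each time. For the fits with 1 array left out this had to be so, since groups that are apart stay apart on fewer arrays. Those fits therefore say nothing on whether its separation is stable. Only quantile normalization and median centring changed the Ephb6 values themselves, and its groups stayed apart in both. With the mean of its kept probe sets a gene differed by 0.35 (Efna1), 0.35 (Efnb1) and -0.10 (Efnb2). The titles share numbers 1 to 3, but same-numbered arrays did not deviate together (r = -0.27, -0.28 and -0.05), so the numbers were not taken as pairs. With the replicate block, 0 members and 8 of all probe sets passed.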
